A study of Homo sapiens with 18 samples.

Results

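The late response to a high progestin dose was taken as the 3 libraries from T47D cells treated with 10 nM R5020 for 18 h against the 3 libraries from cells given DMSO vehicle for 18 h, 6 of the 18 libraries of the study. Every region of the deposited table was considered: 132604 regions of the hg19 build, of which 132304 passed the filter on low counts and were tested, and 300 did not. T47D is an established line from a human breast carcinoma, and R5020 (promegestone) is a synthetic progestin. The assay was Omni-ATAC-seq, a readout of open chromatin in which the Tn5 transposase inserts adapters into open DNA, so that more reads in a region mean a more open region. The study asked how such cells respond to different progestin levels, and per the labels all 6 groups were plated in medium free of phenol red, synchronised by serum starvation, and given 0.1 nM R5020, 10 nM R5020 or vehicle for 6 h or 18 h, with 3 libraries each. The comparison thus describes 1 cell line, and the labels do not state that the libraries of a group are separate cultures. The p-values therefore reflect only how these libraries spread, and that spread may be technical in part.

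The progesterone receptor is a nuclear receptor that, once bound by a progestin, attaches to DNA at hormone response elements and recruits enzymes that open or close chromatin. The glucocorticoid receptor reads very similar elements, so a classic set of genes such as FKBP5 and ZBTB16 answers to both hormones. In luminal breast cells the receptor works on a landscape kept open by pioneer factors such as FOXA1, and progestins are known for driving a short burst of proliferation, for paracrine signals to neighbouring cells, and for lowering the level of their own receptor.

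Levels are given as CPM, the usual counts per scaled library size, and are per region rather than per length. A region was called higher or lower when its adjusted p in edgeR's quasi-likelihood test, adjusted over all 132304 regions, was under 0.05. Replicate 1 of the 10 nM group lay apart from replicates 2 and 3. It held 39984217 counts in regions where they held 10845301 and 8756311, while the vehicle libraries held 25588387, 19991414 and 15735470. Its log2 CPM correlated with theirs at r = 0.845 and 0.843 across regions, beside 0.918 between the other two. The 5000 strongest regions took 37.2% of its counts against 33.0% and 31.1% in replicates 2 and 3, and 39.9%, 38.5% and 36.2% in the vehicle libraries.

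In its median over the regions that respond to the hormone at 6 h, replicate 1 did not lie apart in this way. The 22119 regions called higher with 10 nM at 6 h, in libraries that are not part of the 18 h comparison, stood at median log2 ratios to the 18 h vehicle mean of 1.49, 1.17 and 1.31 in replicates 1, 2 and 3, against -0.13, -0.06 and 0.22 in the vehicle libraries. The 11143 regions called lower at 6 h stood at -0.95, -0.95 and -0.88 with 10 nM, against 0.10, 0.01 and -0.10 with vehicle. All 3 treated libraries thus lay far from all 3 vehicle libraries at these regions, and replicate 1 lay close to the other treated libraries. Replicate 1 differed from the other treated libraries at the strongest regions. Across the 5000 strongest, its median log2 ratio to vehicle was 0.06, where replicates 2 and 3 stood at -0.54 and -0.84 and the vehicle libraries at 0.19, 0.05 and -0.24. It also differed at weaker regions. In decile 2 of the level in the 6 h vehicle libraries (1 = lowest), replicate 1 stood at 0.35 and replicates 2 and 3 at 0.84 and 0.94. In decile 4 the medians were -0.03, 0.36 and 0.45. The part of depth, background or culture in these contrasts was not tested.

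**Figure D1:**
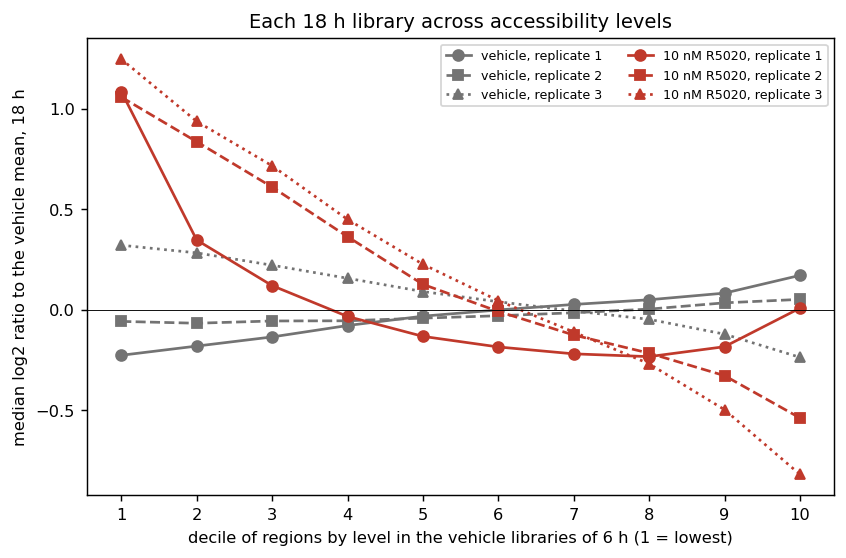
Median log2 ratio of each 18 h library to the mean of the 3 vehicle libraries (vertical axis) in deciles of the tested regions by their level in the 6 h vehicle libraries (horizontal axis, 1 = lowest). Points are library medians, with the 10 nM libraries in red and the vehicle libraries in grey; in the strongest decile, replicate 1 of the 10 nM group stands at 0.01 while replicates 2 and 3 stand at -0.54 and -0.82.

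At 18 h, 10 nM R5020 left 16989 regions more open than vehicle, 12.8% of those tested, and 10002 less open, 7.56%, or 20.4% in either direction. In a bulk assay a site that is open in more cells and one that is more open in each cell cannot be told apart. The gains were mostly at weak sites. Their median level went from 1.06 CPM with vehicle to 3.73 CPM with 10 nM, and 8108 of them (47.7%) were under 1 CPM in vehicle cells. The losses were at sites that were open beforehand, with a median of 6.04 CPM with vehicle and 2.45 CPM with 10 nM, and 2171 of them (21.7%) ended under 1 CPM. Among called regions gains were also the larger changes: 6624 of them (39.0%) were at least 4-fold and 144 at least 16-fold, against 1414 (14.1%) and 20 of the losses. The 2 sets differ in level, and a weak region needs a larger fold to be called, so these sizes are not like for like. The median log2 fold change over all tested regions was 0.01.

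The calls did not hang on a single treated library in their direction. Of the 16989 gains, 16987, 16962 and 16958 lay above the vehicle mean in replicates 1, 2 and 3, with median log2 ratios of 1.94, 1.47 and 1.64. Every one of the 10002 losses lay below it in each replicate, with medians of -1.16, -1.23 and -1.17. These libraries chose the calls, so the counts describe them and support nothing further. CPM values of the 2 groups did not overlap at 16483 of the gains and 9681 of the losses, while over all tested regions 19.4% were higher and 13.9% were lower without overlap.

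**Figure D2:**
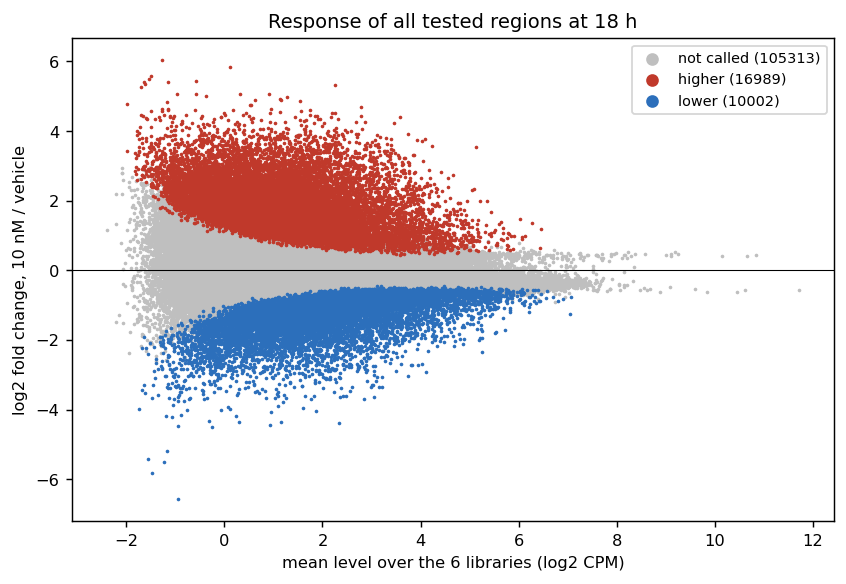
Fitted log2 fold change of 10 nM over vehicle at 18 h (vertical axis) against the mean level over the 6 libraries in log2 CPM (horizontal axis), 1 point per tested region. Red points are the 16989 regions called higher, blue points the 10002 called lower and grey points the rest; the gains reach further from 0 than the losses and thin out at high levels.

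How strong and how wide a region was beforehand went with the direction in which it was called. To keep the grouping apart from the libraries tested, regions were split into deciles by their level in the 6 h vehicle libraries. The lowest decile, with a median of 0.32 CPM, held 29.8% gains and 0.0378% losses, and the highest decile, with a median of 40.9 CPM, held 0.809% gains and 11.4% losses. At the lowest levels a fall can hardly be called, and a region can pass the count filter through a group where it is higher. Grouping by the 6 h vehicle level does not remove these limits. Losses were most frequent in decile 9, at 21.1%. Gains peaked at middling widths, with 17.6% of regions of 387 to 472 bp, and losses at wide ones, with 15.5% of regions of 720 to 974 bp; without replicate 1 losses were instead most frequent in the widest decile, at 35.4%. The median gain was 385 bp wide and the median loss 600 bp, beside 387 bp over all tested regions. The fall in gains with level held without replicate 1 (22.3% in the lowest decile, 0.506% in the highest) and with loess offsets that remove each library's trend with level (19% and 4.75%). The losses of the highest decile did not hold their size: they were 45.0% without replicate 1 and 8.25% with loess offsets.

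Leaving out replicate 1 changed the balance of the calls, and nearly all regions kept their sign. Without it, 14135 regions were called higher and 15261 lower, so that gains went from 62.9% to 48.1% of the calls. Of the original gains 12924 (76.1%) were called again, and 4063 of the 4065 others kept their sign. Of the original losses 7986 (79.8%) were called again, and all 2016 others kept their sign. The libraries that remained had also chosen these calls, so the kept signs describe the calls and support nothing further. The 7275 losses that were called only without replicate 1 were strong regions, with a median of 27.7 CPM in vehicle cells against 7.08 CPM for the shared losses. There replicate 1 stood at a median log2 ratio to vehicle of -0.03 and replicates 2 and 3 at -0.72 and -0.96. A further 1211 gains were called only without replicate 1. Those tested in both fits were weak, with a median of 1.18 CPM in vehicle cells. At these gains replicate 1 stood at 0.22 and replicates 2 and 3 at 1.31 and 1.41. The named losses at strong regions are therefore given below with and without replicate 1.

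The response at 18 h was largely one already present at 6 h, in libraries that the comparisons do not share. At 6 h, 16.7% of tested regions were called higher and 8.42% lower. Of the 18 h gains 13449 (79.2%) were called higher at 6 h, and of the 18 h losses 6493 (64.9%) were called lower. Most of the remainder leaned the same way at 6 h without passing the test there. Among the 3540 gains not called higher at 6 h, 3388 (95.7%) had a positive 6 h log2 fold change, with a median of 0.80 at 6 h and 1.59 at 18 h. Among the 3509 losses not called lower at 6 h, 3221 (91.8%) had a negative one, with medians of -0.46 and -1.01. These regions were chosen for passing at 18 h, which favours a larger value there. A direct test of the change in response between the times called 2 regions (0.00151%) by edgeR, both with a lower response at the later time. Of the 132304 regions, 7371 had an unadjusted p under 0.05 in that test, near the share of 0.05 that would pass with no change. Without replicate 1 of the 10 nM group the number was higher, 11692, so this closeness depended on that library.

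Among regions of moderate level or above, the largest rises were sites that were almost closed in vehicle cells. The region chr5:76353354-76353893 stood at 0.69, 0.514 and 1 CPM in the vehicle libraries and at 39.8, 21.8 and 25.9 CPM with 10 nM. The lowest treated library was far above the highest vehicle library, and the fitted rise was 40.0-fold (log2 5.32, SE 0.42, edgeR adjusted p = 8.81e-08). The region chr16:88043174-88043860 reached the highest level of the 6, with 1.03, 0.669 and 2.65 CPM in vehicle libraries and 47.8, 25.6 and 35.8 CPM in treated ones, a 25.6-fold rise. The groups were far apart there too, although vehicle replicate 3 was above the other vehicle libraries. The region chr6:137368175-137368532 went from 0.216, 0.412 and 0.471 CPM to 14, 8.83 and 9.51 CPM, 30.1-fold.

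The other 3 of the 6 largest rises were chr8:68071401-68071735 (31.5-fold), chr15:86131150-86131626 (29.5-fold) and chr2:145317101-145317732 (29.3-fold). At 6 h all 6 were already called higher, by 15.9-fold to 30.3-fold. With the low dose at 18 h, a comparison that uses the same vehicle libraries and called 1.74% of regions higher, the chromosome 6 region was the one called, at 14.8-fold (edgeR adjusted p = 2.54e-05), and the chromosome 16 region stood at 2.44 ± 1.59 CPM (SD, n = 3) with 0.1 nM. All 6 were 334 to 686 bp wide, and they were called in each of the 15 alternatives tried, the one without replicate 1 included.

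The largest falls were sites of 549 to 1107 bp that nearly closed. At chr5:117345299-117346389 the vehicle libraries held 26.6, 19.9 and 21.5 CPM and the 10 nM libraries 1.16, 0.654 and 1.40 CPM. The fall was 20.9-fold (log2 -4.38, SE 0.27, edgeR adjusted p = 1.08e-08), with no overlap and little spread in either group. On the same chromosome, chr5:161863093-161863647 fell from 9.49, 9.26 and 8.13 CPM to 0.315, 0.736 and 0.373 CPM, 20.4-fold. That site had a smaller response earlier: at 6 h it went from 10.8 ± 2.9 CPM to 3.05 ± 1.24 CPM, 3.55-fold, although the change between the times was not called there.

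Another site, chr2:43647267-43648043, held nearly the same level in each vehicle library, 13.8, 13.5 and 13.9 CPM, and 0.473, 1.31 and 1.03 CPM with 10 nM, 16.3-fold lower. The remaining falls were chr5:51156333-51156882 (15.6-fold), chr4:115247425-115248089 (14.9-fold) and chr11:10896987-10898094 (12.9-fold). All 6 were called lower at 6 h, by 3.55-fold to 24.7-fold, and all 6 were called in each of the 15 alternatives. With 0.1 nM at 18 h, against the same vehicle libraries and with 0.698% of all regions called lower, 5 of the 6 were called lower, by 3.61-fold to 7.02-fold, and the chromosome 11 site stood at 13.1 ± 3.79 CPM between vehicle (25.5 ± 3.7) and 10 nM (1.94 ± 0.407).

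**Figure D3:**
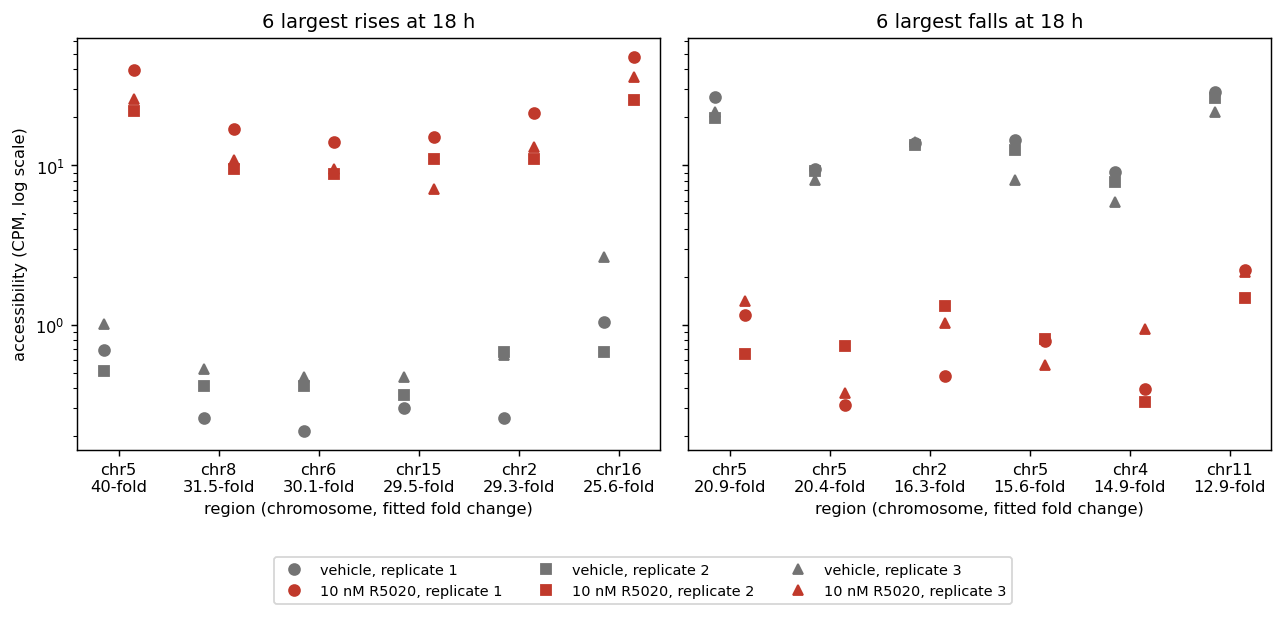
Accessibility in CPM (vertical axis, log scale) of the 6 regions with the largest rise (left) and the 6 with the largest fall (right) among called regions of at least 1 log2 CPM on average, 1 per megabase. Each point is a library, grey for vehicle and red for 10 nM, with its replicate shown by its shape; in every region the groups are separate, and replicate 1 of the 10 nM group is the highest treated library in all 6 rises.

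At regions of high level the changes were smaller. The called rise with the highest level was chr3:195641464-195642279, with 63.8, 65.3 and 49.6 CPM in vehicle libraries and 187, 126 and 97.0 CPM with 10 nM, a 2.30-fold rise (edgeR adjusted p = 0.00208). At 6 h it stood at 73.1 ± 14.8 CPM with vehicle and 109 ± 9.92 CPM with 10 nM and was not called (edgeR adjusted p = 0.11). The region chr20:58401286-58402112 combined a high level with a large change, from 10.8, 8.80 and 11.3 CPM to 140, 108 and 109 CPM, 11.6-fold, and stood at 54.5 ± 12.9 CPM with 0.1 nM. The fourth of these, chr7:906596-907612, passed narrowly at 1.57-fold (edgeR adjusted p = 0.0419) and was no longer called without replicate 1 (edgeR adjusted p = 0.165).

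The called fall with the highest level was chr5:1326094-1328060, where 186, 195 and 234 CPM with vehicle became 85.5, 86.7 and 85.6 CPM with 10 nM, 2.38-fold lower (edgeR adjusted p = 0.000198). The treated libraries were close together there, replicate 1 included. The next 3, chr17:39677329-39679391, chr7:75934035-75936743 and chr11:45000214-45001789, fell 1.69-fold to 1.86-fold. All 4 were called without replicate 1 and none was called with loess offsets, where the edgeR adjusted p of the chromosome 5 site was 0.107. The chromosome 17 call was also lost without any 1 of the other 5 libraries of the comparison, with edgeR adjusted p from 0.0572 to 0.114, and the chromosome 7 call without 4 of them, with edgeR adjusted p from 0.0921 to 0.153.

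Calls were spread over the genome, with some local concentration. Of 2890 bins of 1 Mb that held a tested region, 2664 held a gain and 2495 a loss, with medians of 5 gains and 3 losses. Neighbouring sites tended to be called the same way: the nearest tested region was itself a gain for 21.8% of gains and for 13.2% of all regions, and it was a loss for 17.5% of losses and 7.70% of all regions. Runs of neighbouring regions called in 1 direction reached 7 regions, 6 times for gains and 2 times for losses.

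The bin with the most gains was chromosome 5 from 148 to 149 Mb, with 29 gains (22.8%) and 3 losses among 127 tested regions, and 25 of the 29 gains were also called at 6 h. Its leading region, chr5:148740019-148740315, went from 1.03, 1.18 and 1.06 CPM to 14, 9.49 and 10.4 CPM, 10.4-fold. A run of 7 gains began near the end of this bin and crossed into the next, from 148973860 to 149015301, where the summed level rose from 20, 20.8 and 25.6 CPM to 88.6, 62.6 and 57.9 CPM.

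On chromosome 16 from 14 to 15 Mb a higher share of sites opened, 28 of 73 tested regions (38.4%) beside 7 losses. The leading site there, chr16:14561529-14562140, rose 21.4-fold, from 0.474, 0.926 and 1 CPM to 24.4, 11.7 and 14.3 CPM. The other bins were chromosome 10 from 79 to 80 Mb (28 of 139) and chromosome 9 from 123 to 124 Mb (26 of 91). Without replicate 1 these 4 bins held 28, 21, 31 and 23 gains in the order given.

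The bin with the most losses was chromosome 3 from 189 to 190 Mb, with 21 losses (27.6%) and 10 gains among 76 regions. Its leading site, chr3:189051959-189052713, fell from 19.4, 19.6 and 12.7 CPM to 1.81, 2.62 and 3.36 CPM, 6.90-fold. Chromosome 10 from 8 to 9 Mb had 19 losses of 66 regions, a higher share (28.8%), chromosome 2 from 43 to 44 Mb had 18 of 67, and chromosome 3 from 124 to 125 Mb had 18 of 75. The chromosome 2 bin holds the site at 43647267 named above among the largest falls. Without replicate 1 the 4 bins held 21, 14, 18 and 16 losses.

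The longest runs of gains lay on chromosomes 10 (73989096 to 74016364), 19 (24223205 to 24257008), 2 (74157477 to 74183897), 21 (9839013 to 9850824), 5 and X (40250988 to 40328941). The chromosome 19 run had the largest median change, 7.44-fold, with summed levels of 12.7, 13.7 and 15.1 CPM with vehicle and 91.4, 65.3 and 59.0 CPM with 10 nM. The chromosome 21 run had only 2 of its 7 regions called at 6 h, against 5 or 6 in the other runs of gains, and its summed level was 48.8, 44.8 and 67.2 CPM with vehicle and 190, 101 and 123 CPM with 10 nM. Replicate 1 was thus well above the other treated libraries in that run. The 2 runs of losses lay on chromosomes 4 (143488667 to 143620000) and 9 (13045894 to 13084980), with 4 and 7 of their 7 regions called lower at 6 h. Without replicate 1 each run of gains kept 5 to 7 of its regions as calls, and the runs of losses kept 5 on chromosome 4 and 7 on chromosome 9.

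Whole chromosomes differed less than bins. Gains made up 7.79% of tested regions on chromosome 19 and 16.1% on chromosome 13, the lowest and highest of the 23 chromosomes with any call. Losses ranged from 4.81% on chromosome 22 to 10.6% on chromosome 13. Chromosomes 2, 4, 6 and X were among those with shares of both kinds above those of all regions, and chromosomes 17, 19 and 22 among those with both below. Without replicate 1 this order held for gains at the low end (6.6% on chromosome 19), but losses on chromosome 19 became 13.6%, above the 11.5% of all regions in that fit.

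**Figure D4:**
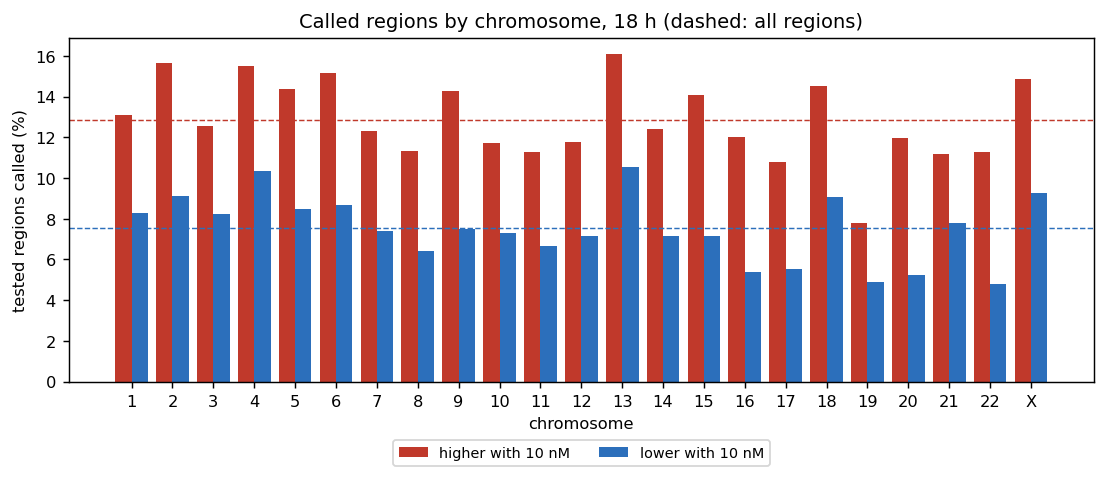
Share of tested regions called higher (red) and lower (blue) with 10 nM at 18 h on each chromosome with any call, in percent (vertical axis). Dashed lines mark the shares over all tested regions, 12.8% and 7.56%; chromosome 13 has the highest bars of both colours and chromosome 19 the lowest red bar.

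To read the response by gene, hg19 positions of 42 genes were set by hand from general knowledge, since no hg19 annotation was used here. A gene was kept where its length differed by under 5% from its length in the RefSeq table of GRCh38.p14 and a tested region overlapped the 2 kb around its start. These conditions kept 30 genes, left out 8 on length, ESR1 and MYC among them, and left out 4 with no region at the start, among them the basal keratins KRT5 and KRT14. Windows ran from 100 kb before to 100 kb after each gene and held 733 distinct regions, 92 gains (12.6%) and 76 losses (10.4%), against 12.8% and 7.56% over all regions. A region in a window was not shown to act on the gene.

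The cell type was checked first at gene starts, where an open region marks a gene's promoter. The region shared by the starts of KRT8 and KRT18, keratins of luminal cells, stood at 108 ± 12.9 CPM in vehicle cells, and the starts of PGR and FOXA1 at 111 ± 16.3 and 95.7 ± 19.9 CPM (SD, n = 3). These starts lay at percentiles 99.6, 99.6 and 99.4 of the vehicle levels of all tested regions. The starts of ACTB and TIPARP lay at percentiles 99.1 and 99.8, so a high start level alone does not mark a cell type. Not every luminal marker could be read, since ESR1 was left out on length. No tested region lay at the starts of KRT5 and KRT14. With 10 nM the keratin start stood at 92.7, 68.7 and 56.4 CPM against 120, 110 and 94.4 CPM with vehicle, and was not called (edgeR adjusted p = 0.0869). It was called lower in 4 of the 15 alternatives, among them without replicate 1, at -0.79 on the log2 scale (edgeR adjusted p = 0.0214).

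The receptor gene and FOXA1 had mostly losses around them. Across the windows of PGR (the progesterone receptor) and FOXA1, 16 of 59 regions were lower (27.1%) and 4 were higher (6.78%), with a median log2 fold change of -0.46 against 0.01 over all regions. Without replicate 1 there were 15 losses and 3 gains, where losses were 11.5% of all regions. With loess offsets there were 15 and 3, and over the 15 alternatives the losses ranged from 7 to 20 and the gains from 3 to 4. At 6 h these windows held 26 losses and 5 gains.

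Both genes had a call at the start itself, in the downward direction. At the PGR start the vehicle libraries held 125, 114 and 92.9 CPM and the treated ones 77.1, 55.6 and 45.6 CPM. The groups did not overlap, and the log2 fold change was -0.89 (SE 0.23, edgeR adjusted p = 0.00923). At the FOXA1 start the levels were 111, 103 and 73.3 CPM with vehicle and 62.6, 46.9 and 42.5 CPM with 10 nM, a log2 fold change of -0.92 (SE 0.25, edgeR adjusted p = 0.0122).

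Replicate 1 was the highest treated library at both starts. Without it the log2 fold change was -1.13 at the PGR start (edgeR adjusted p = 0.00231) and -1.10 at the FOXA1 start (edgeR adjusted p = 0.00664). Of 15 alternatives the call held in 12 for PGR and in 11 for FOXA1. Start regions are strong regions, and 24 of the 29 distinct ones of the kept genes had a negative log2 fold change, with a median of -0.33. With loess offsets 13 of the 29 were negative, and 11 were in a fit with a covariate for the percent of counts held by the 5000 strongest regions, so the common downward lean turned with the scaling. PGR and FOXA1 were still called lower with loess offsets, PGR at -0.44 (edgeR adjusted p = 0.00219).

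FOXA1 is shown in sequence because its start is where the data place a called loss at a gene that prepares chromatin for the receptor. The called region overlaps the 2 kb around the start that was set by hand in hg19. RefSeq gives the 250 bases before the start on the minus strand of chromosome 14 in another build (GRCh38.p14). Positions were not carried between the builds, so it was not checked that the called region covers these bases. They are shown 5′ to 3′ with GGGCGG, the core of the GC box that Sp1-family factors bind, in capitals.
FOXA1: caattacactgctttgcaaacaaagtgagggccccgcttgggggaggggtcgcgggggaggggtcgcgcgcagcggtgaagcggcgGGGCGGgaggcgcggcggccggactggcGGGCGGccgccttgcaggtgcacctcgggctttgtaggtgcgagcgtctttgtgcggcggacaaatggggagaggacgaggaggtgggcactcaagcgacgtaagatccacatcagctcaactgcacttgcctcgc
The stretch held GGGCGG 2 times on either strand, a motif that 42.6% of 35116 RefSeq promoter stretches of 250 bases hold. The spaced palindrome ACANNNTGT of hormone response elements was found 0 times and their shorter element AGAACA 0 times on either strand, which 4.61% and 12.4% of the stretches hold. These letters describe this window only.

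Away from the starts, the sites of largest change near these genes were weaker and moved further. Near FOXA1, chr14:38110127-38110786, 46.1 kb before the start, fell from 6.38, 4.32 and 5.13 CPM to 1.34, 0.736 and 1.21 CPM, 4.66-fold (edgeR adjusted p = 3.08e-05). It stood at 3.83 ± 1.41 CPM with 0.1 nM. The PGR window held 9 losses and 4 gains, and its largest change was a gain past the gene's end, chr11:100860875-100861530, from 1.25, 1.13 and 1 CPM to 6.02, 2.86 and 4.85 CPM, 4.08-fold.

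The windows of progestin and glucocorticoid target genes showed the reverse. They held 48 gains among 250 regions (19.2%, against 12.8% over all) and 14 losses (5.60%, against 7.56%). Of these gains 15 were in the FKBP5 window and 8 in that of ZBTB16. Each other gene had 2 to 4 gains, in windows of 10 (KLF9) to 29 (TIPARP) regions. Each of the 10 genes kept of the 12 listed had at least 1 gain, as did 27 of all 30 kept genes, so that count does not set the targets apart. Gains numbered 43 and losses 19 without replicate 1, and over the 15 alternatives they ranged from 34 to 58 and from 5 to 25. The list holds genes known to answer to these hormones, so it describes where known targets stood.

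FKBP5, a co-chaperone of steroid receptors that dampens their signalling, had the fullest response: 15 of the 38 regions of its window were higher and 1 was lower. The region over its start, chr6:35693527-35696254, was among the called rises of highest level, with 47.7, 45.8 and 51.4 CPM in vehicle libraries and 151, 104 and 116 CPM with 10 nM. Every treated library was more than 2-fold above every vehicle library, and the log2 fold change was 1.35 (SE 0.21, edgeR adjusted p = 0.000118). It stood at 133 ± 18.7 CPM with 10 nM at 6 h and at 137 ± 25.1 CPM with 0.1 nM at 18 h.

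The site of largest change at FKBP5 lay inside the gene, 88.3 kb past its start. There chr6:35607820-35608305 went from 1.03, 0.514 and 1.30 CPM to 20.1, 11.3 and 9.42 CPM, 14.5-fold (log2 3.86, SE 0.36, edgeR adjusted p = 3.7e-07). With 0.1 nM it stood at 2.97 ± 0.469 CPM and was also called (edgeR adjusted p = 0.0162), well under the 13.6 ± 5.71 CPM of 10 nM, whereas at the start the means of the doses lay within their spread. Without replicate 1 the window held 16 gains and 2 losses, and at 6 h it held 17 and 2.

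ZBTB16 encodes a zinc-finger repressor that progestins and glucocorticoids induce, and 8 of its 38 regions were higher and 1 lower. Inside the gene, 119.6 kb past the start, chr11:114049528-114050627 went from 2.80, 2.78 and 4.36 CPM to 30.6, 26.4 and 25.2 CPM, 8.31-fold. The treated libraries were close together there, and with 0.1 nM the mean was 34.5 ± 6.49 CPM, also called. DUSP1 encodes a phosphatase that switches off MAP kinases. A site 4.51 kb before its start, chr5:172202573-172202845, rose from 2.29, 2.47 and 1.83 CPM to 23.3, 14.1 and 15.7 CPM, 8.07-fold, in a window that otherwise held 2 gains and 5 losses.

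Further targets had fewer called sites, and the site named for each is the largest called change of its window. Near TIPARP, a mono-ADP-ribosyltransferase, chr3:156321172-156321853 rose 11.4-fold, from 0.905, 1.65 and 1.36 CPM to 17.9, 11 and 15.5 CPM, and with 0.1 nM it stood at 1.67 ± 0.49 CPM and was not called. KLF9, a hormone-induced Krüppel-like repressor, had 4 gains among 10 regions, led by chr9:73053446-73053795 at 5.51-fold. In STAT5A, a transducer of prolactin signals, chr17:40446319-40446973 rose from 4.05, 5.61 and 5.78 CPM to 20.8, 16.4 and 14.5 CPM, 3.37-fold, and stood at 21.6 ± 4.87 CPM with 0.1 nM. TSC22D3 (the anti-inflammatory mediator GILZ), F3 (tissue factor), SGK1 (a hormone-induced kinase) and PER1 (a clock gene) led with rises of 6.90-fold, 4.87-fold, 4.22-fold and 3.29-fold. The SGK1 site, under 1 CPM with vehicle, was not called without replicate 1 (edgeR adjusted p = 0.0866). Nor was it called with loess offsets (edgeR adjusted p = 0.0617), or without vehicle replicate 1 (edgeR adjusted p = 0.145) or 2 (edgeR adjusted p = 0.108).

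None of these target genes except FKBP5 had a call at the start region. The starts of ZBTB16, TSC22D3, KLF9, SGK1 and STAT5A were not called in any of the 15 alternatives, while gains lay elsewhere in their windows. The starts of PER1, DUSP1, TIPARP and F3 were each called in 1 to 3 of the alternatives.

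Around growth and cell cycle genes 16 of 187 regions were higher and 21 lower (8.56% and 11.2%), beside 12.8% and 7.56% over all regions. Without replicate 3 of the 10 nM group there were 16 gains and 13 losses (8.56% and 6.95%), where 15248 and 8011 of all regions were called. At 6 h there were 31 gains and 24 losses (16.6% and 12.8%), against 16.7% and 8.42% over all regions. Gains thus outnumbered losses there, as they did over all regions. With all libraries, the 18 h losses came mostly from IGF1R and ERBB2. IGF1R, the IGF1 receptor, had 10 losses and 8 gains among 54 regions, and ERBB2, the HER2 receptor, had 5 losses and 1 gain among 25. Near CCNE1, the cyclin that drives entry into S phase, 3 of 16 regions were called, all lower. Its leading site, chr19:30396198-30396663, 93.5 kb past the start, fell from 4.48, 3.70 and 4.07 CPM to 0.342, 0.736 and 0.653 CPM, 7.66-fold (edgeR adjusted p = 6.24e-05), and was also called with 0.1 nM (0.906 ± 0.369 CPM). Near CCND1, cyclin D1, 1 of 22 regions was called, a rise of 3.95-fold at chr11:69538523-69538841 that lost its call in 4 of the 15 alternatives, among them without 10 nM replicate 2 (edgeR adjusted p = 0.0561) and without vehicle replicate 1 (edgeR adjusted p = 0.0741) or 2 (edgeR adjusted p = 0.0648).

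Other members of this list had few called regions, from 4 near EGFR (2 of each kind) to 1 near IRS2. The rise near CDKN1B, the p27 inhibitor of cyclin-dependent kinases, was 7.57-fold at chr12:12826234-12826476, from 0.216, 0.514 and 0.177 CPM to 2.55, 3.27 and 1.12 CPM. IRS1 and IRS2, adaptors of insulin and IGF receptors, led with rises of 4.53-fold and 1.98-fold, and the IRS2 site was not called without replicate 1 (edgeR adjusted p = 0.167). A site 30.3 kb before EGFR, chr7:55056280-55056511, fell 3.55-fold, from 3.28, 3.09 and 2.65 CPM to 0.92, 0.818 and 0.746 CPM. Across the 15 alternatives the list's losses ranged from 12 to 38 and its gains from 10 to 18.

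Genes of paracrine signalling and mammary differentiation had 18 gains and 14 losses among 143 regions, 12.6% and 9.79%, beside 12.8% and 7.56% over all regions. Without replicate 1 there were 15 of each (10.5%), where 10.7% of all regions were higher and 11.5% lower. Without vehicle replicate 2 there were 11 gains and 15 losses, where 12044 and 7234 of all regions were called. TNFSF11 encodes RANKL, the signal by which progestin-responsive cells drive their neighbours to divide. A site 9.19 kb before its start, chr13:43127250-43128121, rose from 2.03, 1.39 and 1.18 CPM to 11.5, 7.28 and 7.74 CPM, 5.74-fold (edgeR adjusted p = 2.09e-06), and stood at 4.32 ± 0.462 CPM with 0.1 nM. The TNFSF11 start was low, at 0.517, 0.412 and 0.943 CPM with vehicle and 2.10, 1.15 and 1.77 CPM with 10 nM, and missed the threshold (edgeR adjusted p = 0.0564), although it was called at 6 h (edgeR adjusted p = 0.00338).

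In ELF5, a transcription factor of alveolar cells, chr11:34504993-34505963 rose from 3.10, 3.76 and 7.13 CPM to 22.4, 15.6 and 30.4 CPM, 4.92-fold. Both groups were wide there, and replicate 3 was the highest of each. WNT4, another paracrine signal of progestins, led with a rise of 3.84-fold at chr1:22368092-22368298, PRLR, the prolactin receptor, with 3.91-fold at chr5:35242942-35243290, and VEGFA, an angiogenic factor, with 4.05-fold at chr6:43813438-43814011. PRLR had 6 gains and 6 losses among 57 regions.

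The remaining windows were small. The windows of the keratins KRT8 and KRT18 held 35 distinct regions, 4 higher and 6 lower, led by a rise of 5.71-fold at chr12:53379595-53380140. XBP1, an estrogen-responsive factor of the unfolded protein response, had 3 called regions among 18, all lower; there were 5 losses without replicate 1, and 1 loss and 1 gain with loess offsets. Its leading site showed a fall of 3.54-fold at chr22:29179802-29180510, from 5.65, 5.20 and 6.42 CPM to 1.45, 1.64 and 1.86 CPM. Around the constitutive genes ACTB and GAPDH, 2 of 41 regions were higher and 2 lower, 4.88% each, both below the shares over all regions. There were 1 gain and 6 losses without replicate 1, and 4 gains and 0 losses with loess offsets. The largest called change near ACTB was a strong region, chr7:5553218-5554644, that fell 1.91-fold (edgeR adjusted p = 0.00252). It was still called without replicate 1 and was not called with loess offsets (edgeR adjusted p = 0.0802). The largest called change near GAPDH was a rise at chr12:6570406-6570726, of 1.76 on the log2 scale (edgeR adjusted p = 0.0346). That call was lost in some alternatives, among them without vehicle replicate 1 (edgeR adjusted p = 0.165). The starts of ACTB and GAPDH were not called.

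**Figure D5:**
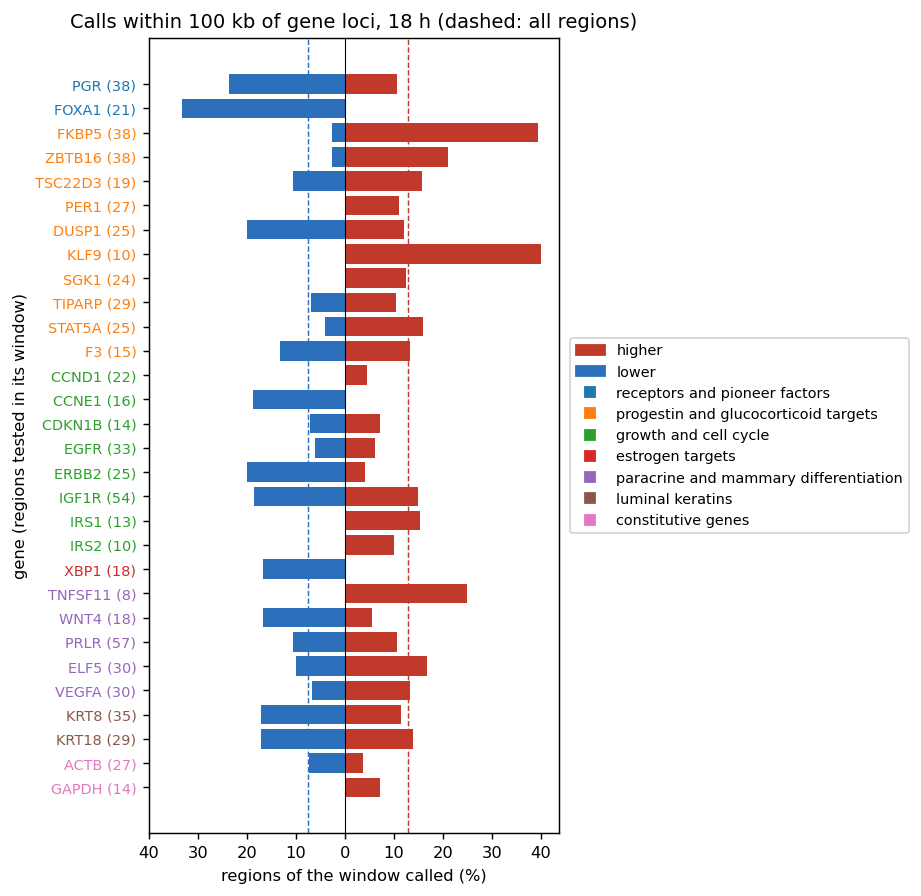
Share of the tested regions within 100 kb of each kept gene that were called higher (red, to the right) or lower (blue, to the left) with 10 nM at 18 h, in percent, with the number of tested regions in brackets and gene names coloured by list. Dashed lines mark the shares over all tested regions, 12.8% and 7.56%; FKBP5 and KLF9 have the longest red bars, and FOXA1 and PGR have the longest blue bars.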

How the data were processed

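Omni-ATAC-seq was measured in 18 libraries of T47D cells. The authors deposited raw read counts per region in 1 table, without normalization. Per the submitters' processing notes BWA and MACS2 were used with hg19; their versions, read filters, any shift for Tn5 insertion and the merging of peaks are not given in the sources used, nor whether starts count from 0 or 1. Each column was matched to a sample by name, and 0 columns were unmatched. Region widths are end minus start.

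The test was edgeR 4.0.16 under R 4.3.3, with filterByExpr (minimum count 10, total 15), TMM, and 1 quasi-likelihood fit of 18 libraries with 6 group means and 12 residual degrees of freedom, adjusted by Benjamini-Hochberg. A standard error is the log2 fold change over the square root of F. Log2 CPM used a prior count of 2. Tables were made in Python 3.11.15 with pandas 2.3.3. The steps were tested on simulated data, where 64 of 100 planted 4-fold changes and 5 of 100 planted 2-fold changes were called, with 2 false calls. Few regions were changed in the simulation, unlike in the data, so these shares may not carry over. A region that was not called may still have changed. Pairs of replicates differed by more than sampling noise (chi-square per degree of freedom 3.53 to 27.8), so none was counted as a repeat.

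Named regions were called, averaged at least 1 log2 CPM and did not overlap between groups: the 6 largest rises and falls (1 per 1 Mb bin), the 4 of highest level each way, and the leading region of the 4 bins with most calls; the called region of largest change in each gene window, the longest runs and the regions called between times were also named. One gene of the list is not reported here. The comparison, genes and rules were chosen with earlier results of these data known. Alternatives were DESeq2 1.42.0, RLE factors, library totals, no filter, a covariate, loess offsets, the 6 libraries alone, a replicate block, stricter thresholds and leaving out libraries.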

Additional observations from a re-analysis of the deposited data

Results flagged for a closer look

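At 2 regions the response to 10 nM differed between 18 h and 6 h by edgeR's test of the difference itself. At chr17:53665309-53666337 the response was lower at 18 h by a log2 difference of -2.00 (SE 0.28, edgeR adjusted p = 0.0462). The 18 h vehicle libraries held 16.8, 16.1 and 17.6 CPM and the 10 nM libraries 5.57, 7.44 and 4.47 CPM, while at 6 h the means were 16.7 ± 1.89 and 23.2 ± 2.07 CPM (SD, n = 3). At chr2:86181916-86182603 the log2 difference was -2.33 (SE 0.33, edgeR adjusted p = 0.0462). This site stood at 7.76, 5.97 and 7.84 CPM with vehicle and 4.73, 3.27 and 3.17 CPM with 10 nM at 18 h, and rose 2.66-fold at 6 h. Both kept the sign of the difference in all 14 alternatives run. Both were still called without replicate 1 of the 10 nM group (edgeR adjusted p = 0.0236 and 0.0127), and neither was called with RLE factors (0.0856 for each) or without any one of the vehicle libraries (0.0927 to 0.112). Without replicate 3 of the 10 nM group neither was called (0.133 for each), and without its replicate 2 the chromosome 2 site was not (0.189). DESeq2 called both. No sequence or gene was assigned to these regions.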

How the results depend on the processing

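The counts of called regions moved with the processing. Gains, 16989 as reported, ranged from 11250 to 16383 when 1 library of the comparison was left out, the fewest without vehicle replicate 1, and were 10446 at an adjusted p under 0.01. Losses, 10002 as reported, ranged in the same way from 6407, again without that vehicle library, to 15261, which came without replicate 1 of 10 nM, and were 15096 with a covariate for the percent of counts held by the 5000 strongest regions, 6259 in a fit of the 6 libraries alone, 6593 with changes of at least 1 on the log2 scale and 5540 at an adjusted p under 0.01. The 6-library fit has fewer samples behind its spread; the cause of the other shifts was not tested.

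Loess offsets, and leaving out replicate 1 of both R5020 groups, were chosen after seeing the data. Loess offsets against level gave 15874 gains and 9350 losses, and with replicate 1 of the 10 nM group also left out 10985 and 9193. Without replicate 1 of both R5020 groups at 18 h there were 16393 and 18672. Gains were 62.9% of the calls as reported, 48.1% without replicate 1 of the 10 nM group, 46.8% with that of the 0.1 nM group left out as well, 54.4% with loess offsets and without that replicate, and 51.7% with the replicate block. Library totals without TMM moved the median of all regions from 0.01 to 0.17 on the log2 scale.

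Each group has replicates 1 to 3 in the labels, which do not state that libraries of the same number share a culture or batch. Deviations from the group mean were compared between the 10 nM and vehicle groups. Replicates 1 and 3 correlated best with the vehicle library of the same number (r = 0.36 and 0.35 across regions). Replicate 2 did not (r = 0.01), and correlated best with vehicle replicate 3 (r = 0.17). Whether the number marks a shared batch was not tested, and the main fit has no block. In a fit with this number as a replicate block, edgeR called 20614 gains and 19266 losses.

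The difference in response between the times, 2 regions as reported, ranged from 0 to 63 when 1 library of the 10 nM group was left out. It was 232 with DESeq2, 0 with RLE factors and 142 with the replicate block. The calls split into 24 higher and 580 lower with the covariate, 5 and 41 with loess offsets, 1 and 26 with totals without TMM, and 5 and 187 without replicate 1 of both R5020 groups. With RLE factors 7240 regions had an unadjusted p under 0.05, again near the share that would pass with no change. Of 1710 values of the 114 named regions under 15 alternatives, 1598 kept direction and call, 112 kept direction and missed the threshold, and 0 changed sign; 25 regions had any such loss. The named regions were chosen as calls in these same libraries, so the kept signs and calls describe them and support nothing further. Of the 4 falls of highest level, 0 were called in every alternative. Depth limits weak regions: 24.3% of tested regions were under 1 CPM with vehicle and 15.2% with 10 nM.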
